A study of Mus musculus with 8 samples.

Results

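Leukocytes hold to vessel walls and matrix through integrins, rolling ligands and hyaluronan receptors, and 9 genes of this machinery were followed here across blood and tumor myeloid cells. They are Itgal, Itgam and Itgax, Itgb2, Itga4, Itgb1, Itgb7, Selplg and Cd44, chosen by name for their part in leukocyte adhesion, with earlier results of these data known. Each was found once among the 32285 genes of the count matrices. No selectin gene is among them, since Selplg encodes a selectin ligand, and the selectin genes were counted in a further list. Single-cell RNA sequencing with hashtag antibodies had been run on CD45+CD11b+Ly6Chi cells, called monocytic myeloid-derived suppressor cells (mMDSC) by the study, from mice carrying subcutaneous MC38 tumors, a colon carcinoma line. The study asked how local irradiation (IR) and loss of the m6A reader YTHDF2 in myeloid cells change these cells. All mice were C57BL/6J, 8 to 10 weeks old and of both sexes by the methods, although Xist, expressed in female cells, had at most 3 UMIs in any group.

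Tumor and blood, with and without IR, were each run as 1 library, and every one of the 4 libraries held both genotypes, which gave 8 groups. IR was 20 Gy in 1 dose to the tumor, and cells were collected 3 days later. Every mouse carried floxed Ythdf2. The cells labelled WT were Ythdf2 fl/fl without Cre, and the cells labelled cKO were Lyz Cre+;Ythdf2 fl/fl, in which Cre is driven from the lysozyme locus of myeloid cells. A group is the pooled cells of 5 mice, run in 1 library. No spread between animals could be estimated, and no test was run. All intervals are 95% intervals that cover counting error alone, and differences between tissues or treatments are also differences between libraries.

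After filtering, 26328 cells were kept, 13763 labelled WT and 12565 labelled cKO. A group held 2165 to 4382 cells and 18396959 to 24065414 gene UMIs (unique molecular identifiers, each standing for 1 captured transcript). A member had 418 to 19502 UMIs per group. Ythdf2 went against its label, at 33.5 to 55.9 CPM (UMIs of a gene scaled to 1000000 gene UMIs of the group) in the WT groups and 305 to 376 CPM in the cKO groups. Whether the 3′ tags counted here fall in the floxed part was not tested. Lyz2, the locus that carries Cre, was at 5721 to 14368 CPM in the WT groups and at 83.2 to 138 CPM in the cKO groups, as the hashtags assign them. The tumor matrices also held barcodes of one another. In the control tumor matrix 7327 barcodes of 500 or more UMIs lacked 20 hashtag UMIs, and 7325 of them were hashtagged in the irradiated tumor matrix. The reverse held for 4955 of 4958. Barcodes without hashtags in their own matrix were left out, and 126 kept control and 152 kept IR barcodes were hashtagged in both tumor matrices.

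Integrins are pairs of an α and a β chain that bind ligands once signals from inside the cell have changed their shape. Itgal, Itgam and Itgax encode the α chains CD11a, CD11b and CD11c, which pair with the β2 chain CD18 encoded by Itgb2 to form LFA-1, Mac-1 and CD11c/CD18. Itga4 encodes the α4 chain, which pairs with the β1 chain (Itgb1) to form VLA-4, a receptor for VCAM-1 and fibronectin, or with the β7 chain (Itgb7) to form a receptor for MAdCAM-1. Selplg encodes PSGL-1, the glycoprotein on which leukocytes roll over P- and E-selectin. Cd44 encodes the main cell surface receptor for hyaluronan.

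The members lie on 6 chromosomes of the mm10 build, and all are annotated as protein-coding genes. Itgal (ENSMUSG00000030830), Itgam (ENSMUSG00000030786) and Itgax lie on the same strand of chromosome 7, at chr7:127296260-127335138, chr7:128062640-128118491 and chr7:128129547-128150657. Only 11055 bases separate the end of Itgam from the start of Itgax. Itga4 lies at chr2:79255426-79333123 and overlaps Cerkl on the opposite strand, which was at 0.332 to 3.02 CPM in the 8 groups. The others are Cd44 at chr2:102811141-102901665, Itgb1 at chr8:128685654-128733200, Itgb2 at chr10:77530252-77565708, Itgb7 at chr15:102215995-102231944 and Selplg at chr5:113818536-113832644.

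Promoter windows of 300 bases (250 before to 50 after the annotated start, from RefSeq on GRCm38.p6) were found for 6 of the 9 members, and not for Itgal, Itgb2 or Selplg. Those of Itgam, Itgax and Itga4 are shown because the first 2 are neighbouring α chain genes with different levels in tumor, and Itga4 is an α chain gene that was lower there. Capitals mark GAGGAA (the purine box bound by PU.1), TGTGGT (the core bound by RUNX factors) and GGGCGG (a GC box), each searched on both strands, with no overlap between the matches. The windows run at chr7:128062390-128062689, chr7:128129300-128129599 and chr2:79255176-79255475, all on the plus strand.
Itgam: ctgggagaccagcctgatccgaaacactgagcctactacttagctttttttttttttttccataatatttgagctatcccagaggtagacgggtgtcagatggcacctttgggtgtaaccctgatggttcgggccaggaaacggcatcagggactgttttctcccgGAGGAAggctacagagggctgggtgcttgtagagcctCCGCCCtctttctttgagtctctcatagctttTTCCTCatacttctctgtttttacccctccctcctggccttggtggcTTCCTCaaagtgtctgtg
Itgax: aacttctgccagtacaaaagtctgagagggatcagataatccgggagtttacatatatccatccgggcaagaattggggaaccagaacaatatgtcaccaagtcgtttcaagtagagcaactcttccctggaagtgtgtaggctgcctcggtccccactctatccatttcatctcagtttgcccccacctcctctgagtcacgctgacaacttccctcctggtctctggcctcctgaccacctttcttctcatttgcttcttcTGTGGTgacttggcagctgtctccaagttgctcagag
Itga4: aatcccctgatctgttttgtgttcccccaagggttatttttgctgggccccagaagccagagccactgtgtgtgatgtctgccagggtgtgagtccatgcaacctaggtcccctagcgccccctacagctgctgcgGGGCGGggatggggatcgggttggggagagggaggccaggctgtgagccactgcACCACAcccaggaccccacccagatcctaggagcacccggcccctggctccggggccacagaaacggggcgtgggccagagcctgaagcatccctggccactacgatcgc
Itgam held GAGGAA 3 times, at bases -84, -15 and 32 from the start site (the last 2 on the opposite strand), and a GC box at -47 on the opposite strand. Itgax held neither of these and had TGTGGT at base 13. Itga4 had TGTGGT at -60 on the opposite strand and a GC box at -114. Among the other windows, GAGGAA was found in those of Itgb1, Itgb7 and Cd44. Of 32851 promoter windows of this length, 28.3% held GAGGAA, 16.8% held TGTGGT and 35.7% held GGGCGG, so such matches are common and are given as a description.

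Between blood and tumor, the members differed in direction. The α chain genes Itgal and Itga4 and the PSGL-1 gene Selplg were lower in tumor cells in every pairing, and Itgax was higher (the plot of levels by group). Itgb7 was lower and Itgb1 higher by smaller ratios, and Itgam, Itgb2 and Cd44 did not keep a direction over the pairings. A member was counted as past the limit when the log2 ratio of CPM, after 1 UMI scaled to depth was added to each sum, was at least 1 in size with at least 100 UMIs in both groups together. Of all genes with that many UMIs, 35.2% passed in WT control, 31.8% in WT IR, 43.4% in cKO control and 31.8% in cKO IR. Among the 9 members 4 passed in WT control (1 higher in tumor, 3 lower), and 5 passed in each of the other pairings (1 higher, 4 lower). The median log2 ratio was -0.50, -0.05, -0.91 and 0.13 over the members, beside 0.11, -0.09, 0.22 and -0.11 over all genes tested. In sums over all kept cells, a different makeup of cells and a different level per cell cannot be told apart.

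**Figure D1:**
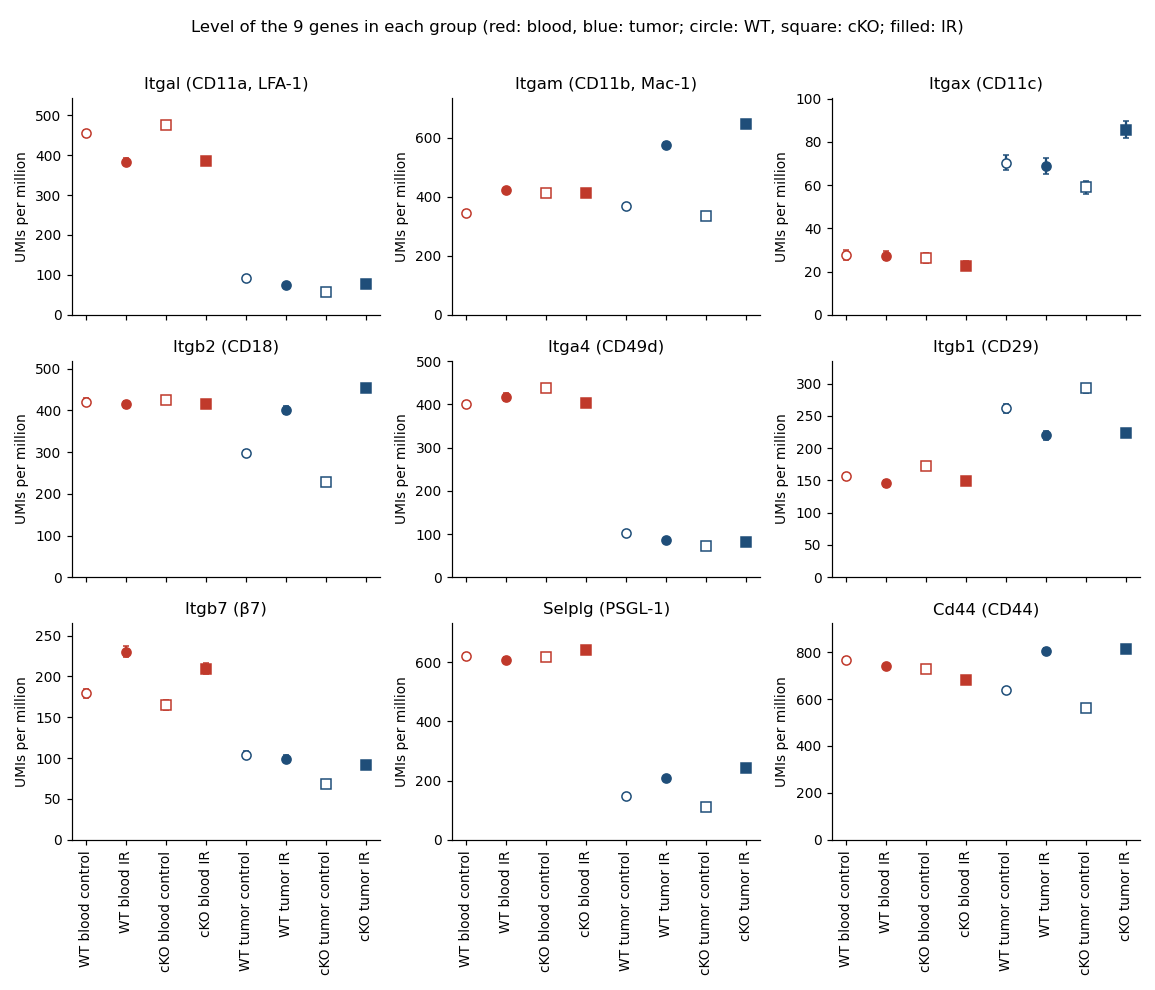
Levels of the 9 genes in the 8 groups, in CPM on axes that start at 0. Red is blood and blue is tumor, circles are cells labelled WT and squares cells labelled cKO, filled points are IR, and bars are 95% counting intervals. Itgal, Itga4, Itgb7 and Selplg stand higher in all 4 blood groups, and Itgax and Itgb1 in all 4 tumor groups. The share of all genes with such a separation was not counted.

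Itgal, the LFA-1 α chain, was at 455 CPM in WT blood control, 384 in WT blood IR, 475 in cKO blood control and 386 in cKO blood IR. In tumor it was at 93.4 CPM in WT control, 74.3 in WT IR, 56.0 in cKO control and 77.0 in cKO IR. The blood and tumor groups did not overlap. The share of all genes whose blood and tumor groups were likewise separate was not counted, here or for the members below. For Itgal the log2 ratio of tumor to blood was -2.28 (-2.36 to -2.21) in WT control, -2.37 in WT IR, -3.08 in cKO control and -2.32 in cKO IR. Itgam, the CD11b gene on whose protein the cells were sorted, was at 346 to 422 CPM in the blood groups. In tumor, Itgam stood at 368 CPM in WT control, 574 in WT IR, 334 in cKO control and 644 in cKO IR, so that the control tumors lay within or just under the blood range and the IR tumors above it. Its log2 ratio of tumor to blood was 0.09, 0.44, -0.31 and 0.65 for WT control, WT IR, cKO control and cKO IR.

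Itgax, the CD11c chain of macrophages and dendritic cells, was the member with the fewest UMIs. It was at 27.5, 27.3, 26.4 and 22.7 CPM in WT control, WT IR, cKO control and cKO IR blood, and at 70.3, 68.7, 58.9 and 85.6 CPM in the same order in tumor. The tumor groups all lay above the blood groups, by 2.55, 2.52, 2.23 and 3.76 times (log2 1.35 (1.213 to 1.495), 1.33, 1.16 and 1.91). With each cell weighted equally the ratios were 0.83, 0.65, 1.15 and 0.99, under the limit in 3 of the 4. Free RNA, read from barcodes ranked 45000 to 90000 in each library, held 63.9 and 86.2 CPM of Itgax in blood and 59.0 and 77.3 CPM in tumor for control and IR. Its part in the levels was not tested. Its neighbour Itgam did not share this step. Itgb2, the β chain common to the 3, stayed within 414 to 425 CPM in the blood groups. In tumor, Itgb2 was at 298 CPM in WT control, 401 in WT IR, 227 in cKO control and 455 in cKO IR, which gave log2 ratios to blood of -0.50, -0.05, -0.91 and 0.13.

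Itga4, the VLA-4 α chain, was at 399.9 to 438 CPM in the blood groups. In tumor it was at 103 CPM in WT control, 85.1 in WT IR, 71.7 in cKO control and 82.7 in cKO IR. These groups were separate, with log2 ratios of tumor to blood of -1.96 (-2.03 to -1.89), -2.29, -2.61 and -2.29. Its β partners differed in direction. Itgb1, carried by most nucleated cells, was at 145 to 172 CPM in blood and 219.9 to 293 CPM in tumor, with log2 ratios of 0.59 to 0.77, under the limit. With each cell weighted equally these were 1.15, 1.16, 1.33 and 1.30 in WT control, WT IR, cKO control and cKO IR, past the limit. Itgb7, the leukocyte β chain, was at 165 to 230.3 CPM in blood and 68.5 to 104 CPM in tumor, with log2 ratios of -0.79, -1.22, -1.27 and -1.20 in WT control, WT IR, cKO control and cKO IR. With equal weighting of cells the Itgb7 ratios were 0.02, -0.60, -0.55 and -0.46, all under the limit.

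Selplg was at 619.7 CPM in WT blood control, 608 in WT blood IR, 619 in cKO blood control and 642 in cKO blood IR. In tumor it was at 147 CPM in WT control, 208 in WT IR, 109.7 in cKO control and 242 in cKO IR. Every tumor group was below every blood group, with a wider gap in the control pairings (log2 -2.08 and -2.50 for WT and cKO) than in the IR pairings (-1.55 and -1.41). Cd44 was at 679 to 768 CPM in blood and at 638, 807, 561 and 813 CPM in WT control, WT IR, cKO control and cKO IR tumor. The groups overlapped, and its log2 ratios to blood were -0.27, 0.13, -0.37 and 0.26. The WT and cKO pairings of a treatment come from the same tumor and blood libraries, split by hashtag, and are not independent repeats. Each library is used again in the IR and genotype comparisons.

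**Figure D2:**
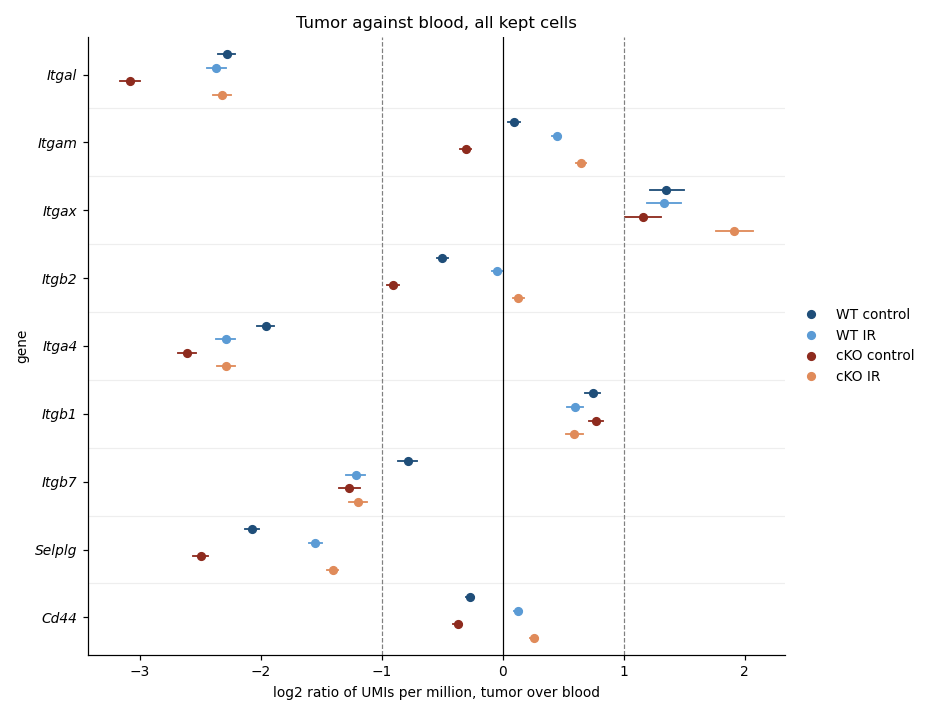
Log2 ratio of CPM in tumor to blood for each gene (all kept cells, 4 pairings of genotype and treatment; bars are 95% counting intervals, dashed lines mark the limit of 1 in either direction). Itgal, Itga4 and Selplg lie below the lower line in all 4 pairings, and Itgax above the upper line in all 4.

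Markers of fibroblasts, cells outside the sorting gate, differed between the tumor groups. The 6 fibroblast markers summed to 714 CPM in WT tumor control, 1202 in cKO tumor control, 424 in WT tumor IR and 214 in cKO tumor IR, and to at most 0.429 CPM in blood. All 6 had a UMI in the control tumors, and 5 of 6 in the IR tumors, where Lum was at 0. Fibroblast-like cells were 116 of the WT tumor control cells (4.61%, with 16.6% of the UMIs), 250 in cKO tumor control (11.5% and 30.1%), 75 in WT tumor IR (2.45% and 9.56%) and 44 in cKO tumor IR (1.197% and 5.34%). In groups of at least 50 such cells, Itgam was at 4.83 to 6.30 CPM, while their UMIs count in the denominator of every level. Sums without them are given beside the tumor results. The 5 epithelial or carcinoma markers summed to 1.10 to 3.30 CPM in the tumor groups. Whether the fibroblast-like cells include MC38 carcinoma cells was not tested.

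Cells were clustered without the 9 genes, Ythdf2, Lyz1 and Lyz2, and clusters were named from marker lists. The gate was broad at the RNA level. A UMI of Ptprc (CD45) was seen in 99.1% of kept blood cells and 84.2% of kept tumor cells, of Itgam in 78.3% and 76.5%, and of Ly6c2 (a Ly6C gene) in 42.3% and 55.6%. Neutrophil-like cells were 51.3% to 67.6% of the cells of a blood group, and 17.5% of all blood neutrophil-like cells had a Ly6c2 UMI. Macrophage-like cells were the largest named class in tumor, with 1246 and 1228 cells in WT and cKO control and 1020 and 1560 in IR. Classes with at least 50 cells in a group were given a level, and levels below are compared between classes for 1 gene at a time.

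The β2 α chains each had a different leading class (the heat map of levels by class). Itgal was highest in nonclassical monocyte-like blood cells, at 688 to 888 CPM over the groups, followed by NK cell-like cells (511 to 619) and neutrophil-like cells (498 to 598), whose ranges overlapped. Classical monocyte-like blood cells had 237 to 291 CPM of Itgal, and no tumor class exceeded 272 CPM. Itgal had no UMI among 443798 in the 74 migratory dendritic cell-like cells of cKO tumor IR, which allows up to 6.76 CPM, and a UMI in 0 of 74 cells, which allows a share of up to 4.05%. Among the named classes Itgam led in granule-rich neutrophil-like cells (848 CPM in the 62 cells of cKO blood control, the only such group) and in tumor macrophage-like cells (504 to 850 CPM), and the tumor cells of unnamed cluster 7 had 570 to 1019 CPM. It was at 616 and 627 CPM in tumor classical monocyte-like cells and at 283 to 337 CPM in those of blood. NK cell-like cells had 277 to 350 CPM of Itgam in blood and 49.9 to 81.8 in tumor.

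Itgax was highest in tumor dendritic cell-like cells (107 to 190 CPM) and macrophage-like cells (85.7 to 110 CPM), which overlapped. In blood it was highest in NK cell-like cells, at 57.0 to 103 CPM, and was at 1.07 to 4.09 CPM in classical monocyte-like cells. Itgb2 was spread more evenly, with 586 to 646 CPM in blood NK cell-like cells, 488 to 524 in blood neutrophil-like cells, 323 to 552 in tumor macrophage-like cells and 133 to 163 in tumor neutrophil-like cells. Of the UMIs of the 3 α chains together, Itgal had 41.2% to 50.6% in blood classical monocyte-like cells and 5.03% to 11.6% in tumor macrophage-like cells. Itgam held 73.7% and 77.6% of them in WT and cKO control macrophage-like cells and 84.4% and 83.5% in IR ones. A 3′ tag is counted once per transcript whatever its length, and the shares say nothing of the proteins.

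**Figure D3:**
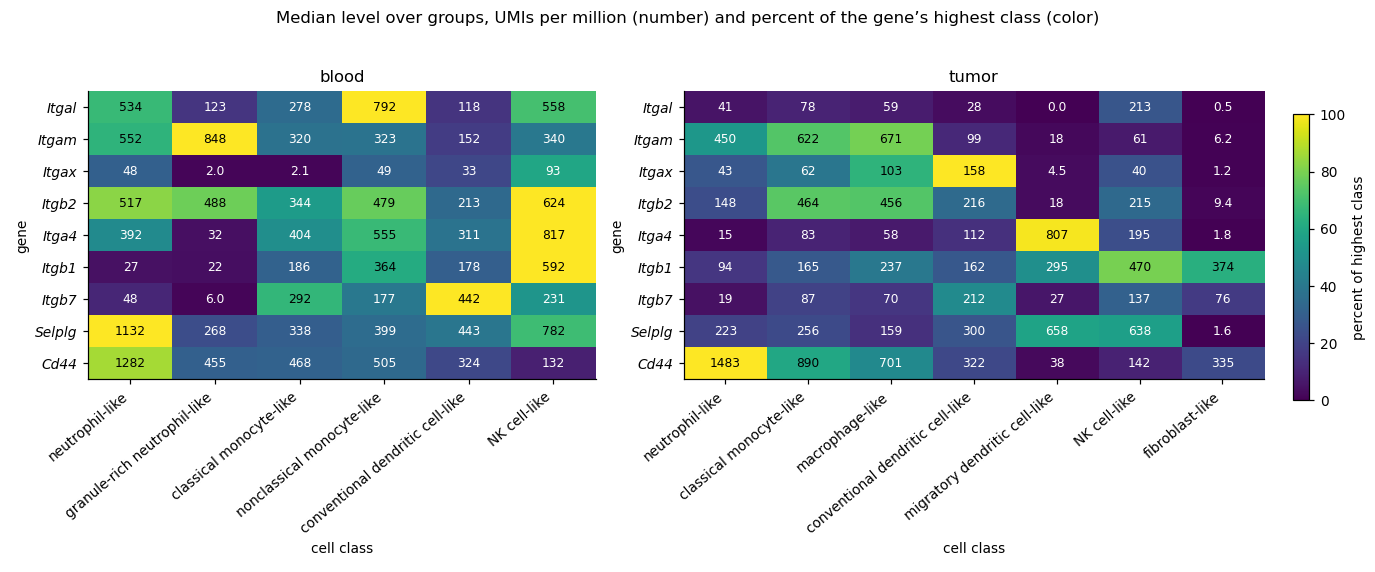
Level of each gene by cell class in blood and tumor. Numbers are the median CPM over the groups with at least 50 such cells, and the color is the percent of that gene's highest class. Itgal peaks in nonclassical monocyte-like blood cells, Itgax in tumor dendritic cell-like cells and Cd44 in neutrophil-like cells of both tissues.

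Itga4 was highest in blood NK cell-like cells (790 to 956 CPM) and was at 807 CPM in the 74 migratory dendritic cell-like cells of cKO tumor IR. Among blood monocytes and neutrophils it was at 486 to 623 CPM in nonclassical monocyte-like, 380 to 468 in classical monocyte-like and 363 to 415 in neutrophil-like cells. Macrophage-like tumor cells had 32.5 to 78.4 CPM. Itgb1 was at 459 to 633 CPM in blood NK cell-like cells and at 22.8 to 29.1 CPM in blood neutrophil-like cells, and at 366 to 390 CPM in fibroblast-like cells. Itgb7 led in dendritic cell-like cells, at 442 CPM in the 102 such cells of WT blood control and 186 to 241 CPM in tumor, and was at 41.1 to 70.5 CPM in blood neutrophil-like cells. Fibroblast-like cells also had 69.8 to 77.3 CPM of Itgb7, against at most 2.62 CPM of Itga4.

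Selplg was highest in blood neutrophil-like cells, at 1041 to 1195 CPM, above unnamed cluster 12 (785 CPM) and NK cell-like cells (723 to 795 CPM), which did not overlap with it. Blood monocyte-like classes had 307 to 416 CPM and tumor macrophage-like cells 128 to 213 CPM. Cd44 was also highest in neutrophil-like cells, at 1180 to 1327 CPM in blood and 1380 to 1586 in tumor. Its lowest blood class was NK cell-like cells at 105 to 141 CPM, and in tumor the migratory dendritic cell-like cells had 38.3 CPM. Fibroblast-like cells had 325 to 397 CPM of Cd44, so for this gene and for Itgb1 they carry a level of their own.

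Within cell classes present in both tissues, the step between blood and tumor differed by class (the plot of ratios within classes). Itgax was higher in tumor in the classical monocyte-like and dendritic cell-like classes, and was not in neutrophil-like or NK cell-like cells. Classical monocyte-like cells of the IR groups lay mostly in cluster 2 in blood and cluster 6 in tumor. Cluster 2 had 6 of the 8 class markers raised and cluster 6 had 3, with Ifit2 and Rsad2 among its leading genes. Ratios within this class are thus also ratios between clusters. Itgax was at 1.07 CPM (11 UMIs in 807 cells) in classical monocyte-like cells of WT blood IR and 51.4 CPM (203 UMIs in 608 cells) in those of WT tumor IR. In cKO IR it was at 2.82 CPM (28 UMIs) in blood and 72.5 CPM (315 UMIs) in tumor. The log2 ratios were 5.41 (4.71 to 6.61) and 4.62 (4.12 to 5.30). With each cell thinned to 1000 UMIs, 4.78% of WT and 7.43% of cKO tumor IR classical monocyte-like cells had an Itgax UMI (20.4% and 28.9% unthinned). The share was 0.133% to 0.448% over the 4 blood groups (1.24% to 3.59% unthinned). Fibroblast-like cells, which should lack Itgax, had a thinned UMI in 0 of 116, 0 of 249 and 0 of 63 cells, which allows up to 2.59%, 1.205% and 4.76%. The last bound, from WT tumor IR, is near the 4.78% above. The fibroblast-like cells had a median of 26371 UMIs, against 6404 in cluster 6. Free RNA can be a smaller part of the UMIs in such deep cells. Their shares, here and below, therefore do not bound the background of smaller cells, which was not tested.

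The other β2 genes differed less in these cells. Itgam was at 627 CPM in tumor and 337 in blood for WT IR, a log2 ratio of 0.90 (0.82 to 0.97), and the ratio was 0.88 in cKO IR. Itgb2 had ratios of 0.47 and 0.45. Itgal was lower in tumor, at 71.4 against 237 CPM in WT IR (log2 -1.73) and 84.5 against 267 CPM in cKO IR (-1.66). Itgal therefore held 9.52% and 10.9% of the 3 α chains' UMIs in tumor classical monocyte-like cells of WT and cKO IR, and Itgax 6.86% and 9.38%, while Itgax had 0.187% to 0.683% in the blood groups.

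The α4 genes were lower in tumor classical monocyte-like cells too. Itga4 was at 90.2 against 406 CPM in WT IR, a log2 ratio of -2.17 (-2.33 to -2.01), and at 75.0 against 379.8 CPM in cKO IR (-2.34). Itgb7 followed it (-1.94 and -1.87), whereas Itgb1 was close to its blood level (0.02 and -0.30). Selplg differed by -0.30 and -0.45, much less than in the sums over all cells. Cd44 was at 908 CPM in tumor and 461 in blood for WT IR (log2 0.98), and at 872 and 435 CPM for cKO IR (1.003). For Cd44, both tumor values in this class lay above both blood values, a step that the sums over all cells did not show.

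Neutrophil-like tumor cells lay mostly in cluster 11, and their blood counterparts in cluster 0 for WT and cluster 1 for cKO. Cluster 11 had 5 of the 10 neutrophil markers raised, S100a8 and S100a9 not among them, and clusters 0 and 1 had all 10. Itga4 was at 15.5 CPM (10 UMIs in 323 cells) in WT tumor IR and 387 CPM in WT blood IR, a log2 ratio of -4.63 (-5.71 to -3.77). In cKO IR the values were 15.2 CPM (7 UMIs in 242 cells) and 415 CPM, a ratio of -4.75 (-6.09 to -3.73). A thinned UMI of Itga4 was seen in 1.65% and 2.63% of these tumor cells, near the share in fibroblast-like cells (0% to 1.59%), and in 27.2% to 32.4% of blood neutrophil-like cells over the 4 groups. Free RNA of Itga4 was at 57.2 CPM in the IR tumor library. The fibroblast-like share does not bound the background of these smaller cells. Whether the tumor level of Itga4 in neutrophil-like cells stands above background was not tested.

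Further members were lower in tumor neutrophil-like cells. Itgal was at 49.4 against 498 CPM in WT IR (log2 -3.33) and 32.5 against 524 CPM in cKO IR (-3.996). Selplg was at 223 against 1095 CPM in WT IR (-2.30) and the ratio was -2.39 in cKO IR. Itgb2 was at 133 against 523 CPM in WT IR (-1.97) and at 163 against 524 in cKO IR (-1.69). By contrast, Itgb1 was higher in tumor, at 91.2 against 29.1 CPM in WT IR (1.64, 1.21 to 2.07) and at 97.6 against 26.2 CPM in cKO IR (1.88). The tumor values rest on 104 UMIs over both genotypes. Free RNA of Itgb1 was at 176 CPM in the IR tumor library and 111 CPM in the IR blood library. Its part in this difference was not tested. Itgam, Itgax and Cd44 stayed within 0.43 of their blood level on the log2 scale, and the interval for Itgax included 0 in both genotypes.

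**Figure D4:**
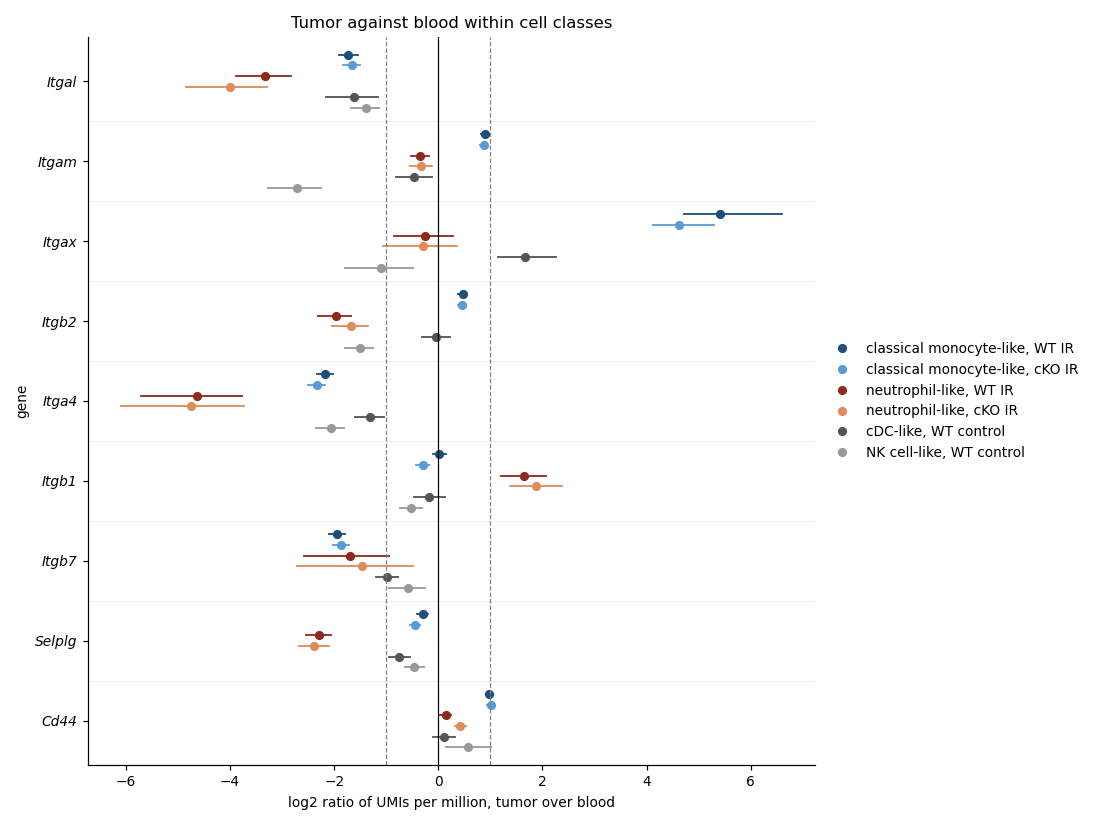
Log2 ratio of CPM in tumor to blood within cell classes that had at least 50 cells in both tissues (bars are 95% counting intervals). Itgax in classical monocyte-like cells lies at 5.41 and 4.62, and Itga4 in neutrophil-like cells at -4.63 and -4.75.

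Lymphoid and dendritic classes gave the same direction for Itga4 and Itgal. In NK cell-like cells (cluster 15 in tumor, 16 in blood), Itga4 had log2 ratios of -2.07, -2.19 and -2.11 in WT control, WT IR and cKO control, and Itgal -1.40, -0.90 and -1.52. Itgam was also lower there (-2.71, -2.73 and -1.72), unlike in the monocyte-like class, and so was Itgb2 (-1.51, -1.54 and -1.42). Itgax was lower in tumor NK cell-like cells as well, on few UMIs, at 42.8 against 93.3 CPM in WT control (-1.10, -1.78 to -0.49), with ratios of -0.61 (-2.03 to 0.57) in WT IR and -1.14 (-2.24 to -0.18) in cKO control. In dendritic cell-like cells of WT control (cluster 13 in tumor, 17 in blood), Itgax was at 107 against 33.5 CPM (1.66, 1.14 to 2.25), Itgal at 37.6 against 118 CPM (-1.63) and Itga4 at 125 against 311 CPM (-1.31).

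IR was compared with control within genotype and tissue, to see how the adhesion genes differ after irradiation of the tumor. In blood the members differed little. None of the 9 passed the limit in WT or cKO blood, beside 1.29% and 1.38% of all genes. Itgb7 was higher after IR in both genotypes, at 230.3 against 179.5 CPM in WT (log2 0.36, 0.30 to 0.42) and 209.5 against 165 CPM in cKO (0.34, 0.27 to 0.41). Itgal was lower in both, by log2 ratios of -0.25 and -0.30. Itgam was higher in WT alone (0.29, against -0.00 in cKO), and the other ratios lay between -0.21 and 0.06. Within blood classical monocyte-like cells, Itgb7 had ratios of 0.32 and 0.13 in WT and cKO and Itgal -0.29 and -0.11. In neutrophil-like cells Itgb7 was at 70.5 against 41.1 CPM in WT (0.77), with a ratio of 0.05 in cKO.

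In tumor, the Mac-1 genes Itgam and Itgb2 and the PSGL-1 gene were higher after IR in both genotypes. None of the members passed the limit in WT tumor, beside 6.13% of all genes, and 2 passed in cKO tumor, Selplg and Itgb2, beside 22.1% of all genes. The members' medians were -0.03 and 0.54, against -0.14 and -0.18 over all genes. For Itgam, the WT level was 574 CPM in IR and 368 in control (log2 0.64, 0.60 to 0.68), and the cKO level 644 and 334 CPM (0.95, 0.91 to 0.99). Itgb2 had ratios of 0.43 in WT and 1.001 (0.95 to 1.05) in cKO, the latter just at the limit. Selplg was at 208 against 147 CPM in WT (0.50, 0.43 to 0.57) and at 242 against 109.7 CPM in cKO (1.14, 1.08 to 1.21). Cd44 was higher by 0.34 and 0.54, and Itgb1 lower by -0.25 and -0.39. Itgal, Itga4, Itgax and Itgb7 did not share a direction, at -0.33, -0.27, -0.03 and -0.07 in WT and 0.46, 0.21, 0.54 and 0.41 in cKO.

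The makeup of the tumor groups differed as well, and its part in these ratios was tested only by leaving out fibroblast-like cells and by looking within classes. Classical monocyte-like cells were 36 and 18 in WT and cKO tumor control and 608 and 646 in IR, and neutrophil-like cells 17 and 28 against 323 and 242. Without fibroblast-like cells, the cKO ratios were 0.71 for Selplg, 0.57 for Itgb2 and 0.52 for Itgam, and no member passed the limit in either genotype. The WT ratios were then 0.39, 0.32 and 0.53. Without these cells Itgal had a ratio of 0.02 and Itga4 of -0.22 in cKO, against -0.44 and -0.39 in WT. The foreign barcodes of the tumor matrices also bear on these values. With genotypes pooled, Itgam had a ratio of 0.81, Itgb2 of 0.73 and Selplg of 0.84 in barcodes with the hashtag minimum (6736 in IR, 4679 in control). Without the minimum (11544 and 11437 barcodes) they were 0.24, 0.24 and 0.26, and among the barcodes under it -0.85, -0.71 and -0.84. Those barcodes carry the hashtags of the other tumor library, and the ratio was of the opposite sign in them. Leaving out the kept barcodes hashtagged in both matrices moved no ratio by more than the counting interval.

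Within macrophage-like cells, where at least 1020 cells were present in every tumor group, the Mac-1 genes kept the direction. Most of these cells were in cluster 3 in both WT groups and in cKO control, and in cluster 5 in cKO IR. The cKO ratios within this class are thus also ratios between clusters. Itgam was at 832 against 510 CPM in WT (log2 0.70, 0.65 to 0.76) and at 850 against 504 CPM in cKO (0.75, 0.71 to 0.80). With cells thinned to 1000 UMIs, an Itgam UMI was found in 47.9% and 52.7% of WT and cKO IR cells and in 39.6% and 39.9% of control cells (93.8%, 93.6%, 88.8% and 94.1% unthinned), beside 1.205% to 1.72% of fibroblast-like cells. Itgb2 was at 532 against 381 CPM in WT (0.48) and 552 against 323 CPM in cKO (0.77). Selplg was at 188 against 128 CPM in WT (0.55) and at 213 against 130.2 CPM in cKO (0.71).

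Itga4 was lower after IR in macrophage-like cells and passed the limit in both genotypes. The share of all genes past the limit within this class was not counted. Itga4 was at 38.2 against 78.4 CPM in WT, a log2 ratio of -1.03 (-1.23 to -0.85), and at 32.5 against 77.4 CPM in cKO (-1.25, -1.42 to -1.08). The thinned share of cells with an Itga4 UMI was 4.13% and 3.28% in IR and 8.03% and 7.25% in control, beside 0% to 1.59% of fibroblast-like cells. Free RNA of Itga4 in the tumor libraries was at 80.2 CPM in control and 57.2 CPM in IR, also lower in IR, and its part in this difference was not tested. Its partner Itgb1 differed by -0.16 and -0.18. Itgal had ratios of -0.69 in WT and -0.04 in cKO, and Itgb7 of -0.05 and 0.61, and these differences between the genotypes were not tested. The next largest tumor cluster, unnamed cluster 4, had Itgam ratios of -0.09 and -0.13 and Itga4 ratios of -0.15 and -0.17.

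**Figure D5:**
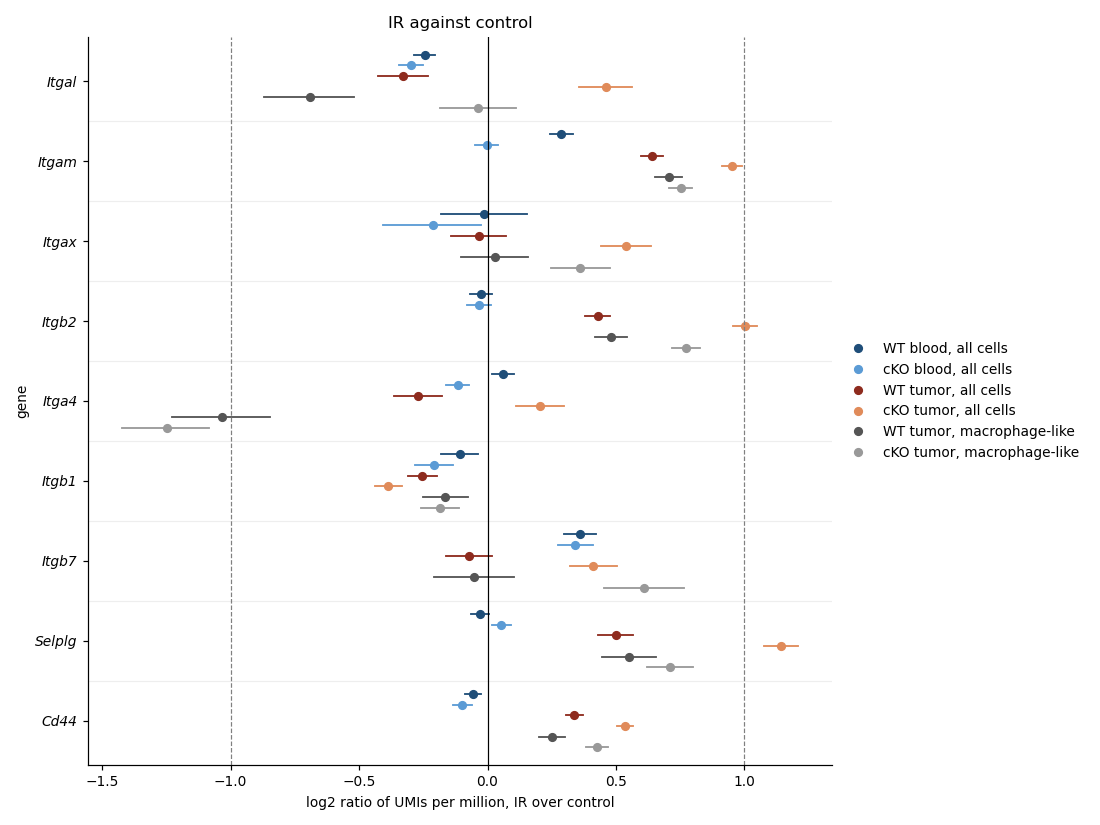
Log2 ratio of CPM in IR to control for all kept blood cells, all kept tumor cells and macrophage-like tumor cells (cells labelled WT and cKO; bars are 95% counting intervals, dashed lines mark the limit of 1). In macrophage-like cells Itgam lies at 0.70 and 0.75 and Itga4 at -1.03 and -1.25.

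The cells labelled cKO and WT shared a library in each comparison, and no member passed the limit. Of all genes, 2.26% passed it in control and 0.687% in IR blood, and 4.75% in control and 1.13% in IR tumor. In tumor control, 8 of the 9 were lower in cKO. Itgal was at 56.0 against 93.4 CPM (log2 -0.74, -0.84 to -0.64), Itgb7 at 68.5 against 104 CPM (-0.60) and Itga4 at 71.7 against 103 CPM (-0.52). Selplg and Itgb2 followed at -0.42 and -0.39, and Itgb1 was higher by 0.16. The fibroblast-like share was larger in the cKO cells of this library. Without those cells the ratios were -0.48 for Itgal, -0.74 for Itgb7 and -0.27 for Itga4, while Selplg, Itgb2, Itgam, Itgax, Cd44 and Itgb1 lay between -0.16 and 0.11.

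Itgb7 and Itgal kept the direction within macrophage-like cells of tumor control. Itgb7 was at 43.5 CPM in cKO and 75.6 CPM in WT (log2 -0.79, -0.95 to -0.64), and Itgal at 59.7 and 80.2 CPM (-0.43, -0.57 to -0.29). In the IR tumors the same class gave -0.13 for Itgb7 and 0.23 for Itgal, with the WT and cKO cells mostly in different clusters. Over all tumor IR cells, Itgax was higher in cKO (0.32, 0.22 to 0.42), with 85.6 against 68.7 CPM, as were Selplg (0.22), Itgb2 (0.18) and Itgam (0.17). In blood the members lay between -0.26 and 0.25, with Itgam at 412 against 346 CPM in control (0.25) and 411 against 422 CPM in IR (-0.04). In classical monocyte-like blood cells Itgax was at 4.09 against 1.37 CPM in control (28 and 11 UMIs) and at 2.82 against 1.07 CPM in IR (28 and 11 UMIs). These few UMIs gave log2 ratios of 1.48 (0.52 to 2.73) and 1.32 (0.34 to 2.55).

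Further genes of the same machinery were counted in lists and are read beside the same 35.2%, 31.8%, 43.4% and 31.8% of all genes past the limit between tissues. The 15 genes of integrin activation all had enough UMIs. In tumor against blood, 1 of these was higher and 6, 6, 9 and 6 were lower in WT control, WT IR, cKO control and cKO IR, with medians of -0.84, -0.60, -1.12 and -0.74. Rasgrp2, the exchange factor that switches on Rap1 upstream of integrins, was at 189 to 202 CPM in blood and 10.6 to 28.4 CPM in tumor, with log2 ratios of -3.20, -2.75, -4.25 and -2.97. The Rap1 effectors Rassf5 (-2.30, -2.12, -2.99 and -1.97) and Apbb1ip (-2.42, -2.14, -2.51 and -2.26) were lower as well. Across the other comparisons, 1 gene of this list passed the limit, Rasgrp2, which was higher in IR than control cKO tumor (1.18). In that comparison 22.1% of all genes passed.

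Selectins and the enzymes that glycosylate selectin ligands formed the next list. Of 13 genes, 11 or 12 had enough UMIs, of which 2 or 3 were higher and 6 or 7 lower in tumor, with medians of -1.49, -1.49, -1.63 and -1.60 in WT control, WT IR, cKO control and cKO IR. St3gal6, a sialyltransferase, was lower in tumor by log2 ratios of -4.38, -3.07, -4.36 and -3.82. Fut7, the fucosyltransferase that completes selectin ligands, had 23 to 143 UMIs per group and ratios of -1.85, -2.45, -2.43 and -2.42.

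The integrin ligands were counted in the same way. Of 10 genes, 7 had enough UMIs, of which 6, 5, 4 and 5 were higher and 1 lower in tumor, with medians of 2.15, 1.54, 1.77 and 1.10. Spp1, which encodes osteopontin, was at 1533 to 2667 CPM in tumor and 1.54 to 6.36 CPM in blood. Thbs1, the thrombospondin gene, had log2 ratios of 2.94, 4.10, 3.30 and 5.14. Its ratio of IR to control was 1.52 in cKO tumor and -0.56 to 0.60 in the other pairings, and its ratio of cKO to WT was -1.47 (control) and -1.23 (IR) in blood and -1.12 and -0.19 in tumor. Vcam1, the VLA-4 ligand, had 1 to 9 UMIs per blood group. In tumor Vcam1 was at 42.3, 30.2, 92.5 and 14.9 CPM in WT control, WT IR, cKO control and cKO IR, the order of the fibroblast marker sum. In IR against control, it was lower in cKO tumor (-2.63) and Spp1 higher in cKO blood (1.78, from 29 to 100 UMIs).

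The 20 other integrin subunits had 7 to 10 measured genes per pairing, of which 4, 4, 6 and 4 were higher and 2, 3, 2 and 1 lower in tumor, with medians of 1.26, 0.91, 1.56 and 1.46. Itga6, the α6 laminin receptor chain, was higher by 2.41, 1.54, 3.85 and 1.93, and the platelet and macrophage chain Itgb3 lower by -1.51, -1.59, -2.15 and -1.67. Itgb4, the α6 partner, had 0 or 1 UMI in the blood groups. In WT control, WT IR, cKO control and cKO IR tumor Itgb4 was at 11.5, 6.83, 24.9 and 4.58 CPM. These levels followed the order of the fibroblast marker sum. Itga6 was at 18.7, 7.38, 32.8 and 8.21 CPM in the same groups, also higher in the control tumors. In IR against control, 9 of the list were measured in each tumor pairing. Of these, Itga1 was higher in cKO tumor (1.72), and 4 were lower there and 3 in WT tumor. Of all genes, 22.1% passed the limit in cKO and 6.13% in WT tumor. The CD44 list of 11 genes had 9 or 10 measured genes, of which 4 or 5 were higher and 0 lower in tumor, with medians of 0.70, 0.59, 1.28 and 0.54. Cd74, a CD44 partner, had ratios of 2.39, 2.21, 1.73 and 2.26. Mmp14, a sheddase of CD44, was at 126 to 173 CPM in tumor with 3 to 15 UMIs per blood group. The hyaluronan synthase gene Has1 was at 57.7, 36.5, 111 and 17.4 CPM in WT control, WT IR, cKO control and cKO IR tumor, the same order of groups as the fibroblast marker sum, with 0 to 3 UMIs per blood group. In IR against control, Has1 and Has2 were lower in cKO tumor (-2.68 and -1.59), of 10 measured genes and beside the same 22.1% of all genes. None of the list passed the limit in the other 3 pairings.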

How the data were processed

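The authors deposited, per library, raw UMI counts for every barcode of 10x Genomics 3′ v3.1 libraries with TotalSeq-B hashtags. The matrices' header names Cell Ranger 4, whereas the methods and the submitters' processing notes name Cell Ranger 6.0.1 (mm10, GENCODE vM23) and Seurat 4.0.6. The counts were used as deposited. Cells were called as in Cell Ranger (expected cells 8000, 10000 simulated profiles, FDR 0.01, ambient ranks 45000 to 90000) and kept with at least 500 UMIs, at least 200 genes, at most 25% mitochondrial UMIs and at least 20 hashtag UMIs. WT meant at least as many B0301 as B0302 hashtag UMIs, and cKO at least 4 times as many B0302. The barcodes in between (381 to 497 per library) and the top 6% by Scrublet score (scanpy 1.11.5) were removed. Kept cells had a median of 7341 (control) and 6074.5 (IR) UMIs in tumor and of 3075 and 3134.5 in blood. Clusters came from Seurat 5.3.0 (Louvain resolution 0.8) and were named from markers.

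UMIs were summed per group and class and scaled to 1000000 (CPM). Exact Poisson, conditional binomial and Clopper-Pearson 95% intervals (scipy 1.17.1) cover counting error only. With 1 pool of mice per group there was no test. The floor for 0 UMIs was 3 counts. Shares of cells were also computed after thinning each cell to 1000 UMIs, leaving out shallower cells. The ratio script was tested on simulated data. All 9 members are named in each comparison, and from each further list at most 3 genes per family of comparisons, those with the largest mean absolute log2 ratio. Genes most like a member are the 3 with the highest Pearson r among genes with at least 500 UMIs. The members and lists were chosen with earlier results of these data known. Alternatives covered UMI, hashtag, mitochondrial and doublet limits, HTODemux, TMM scaling (edgeR 4.0.16, used for scaling factors alone), the added count, clustering and thinning. Equal weighting of cells, myeloid classes alone, leaving out barcodes hashtagged in both tumor matrices and dropping the hashtag minimum were added after seeing the data. The authors' cell annotation was not used here. A gene of the further lists is not reported here.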

Additional observations from a re-analysis of the deposited data

Results flagged for a closer look

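These ratios had opposite signs in all samples of the groups compared, with 1 sample per group, and the differences between them were not tested. Itgal in IR against control had a log2 ratio of -0.30 in cKO blood and 0.46 in cKO tumor, and of -0.33 in WT tumor against 0.46 in cKO tumor. Without fibroblast-like cells the Itgal ratios in tumor were -0.44 in WT and 0.02 in cKO. Itgax in cKO against WT had a log2 ratio of -0.26 in irradiated blood, -0.26 in control tumor and 0.32 in irradiated tumor, and without fibroblast-like cells the tumor control ratio was 0.00. Cd44 in tumor against blood had a ratio of -0.37 in cKO control and 0.26 in cKO IR. Itgam in the same pairings had ratios of -0.31 and 0.65. The control and IR pairings use different tumor and blood libraries, and the cKO tumor control group held the largest share of fibroblast-like UMIs (30.1%).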

How the results depend on the processing

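The count of members past the limit in IR against control of cKO tumor moved most with the processing. It was 2 as reported, 1 when Scrublet calls were kept, 0 with each cell weighted equally, 0 with myeloid classes alone, and 3 with HTODemux genotypes or TMM scaling. In tumor against blood the counts ran from 4 to 6 under the alternatives, and stayed at 0 in the other comparisons. No ratio of a member reversed a call. Over the alternatives, the log2 ratios of IR to control in cKO tumor ran from 0.70 to 1.35 for Selplg, 0.62 to 1.21 for Itgb2 and 0.59 to 1.15 for Itgam. In tumor against blood Itgal ran from -3.23 to -1.99, Itga4 from -2.76 to -1.52, Selplg from -2.64 to -1.29 and Itgb7 from -1.73 to 0.02 over the 4 pairings. Itgax ran from 0.83 to 1.95 in WT control, 0.65 to 1.71 in WT IR, 1.01 to 1.69 in cKO control and 0.99 to 2.17 in cKO IR, under the limit in 3 of the 4 with each cell weighted equally, while Itgb1 then passed it in all 4 (highest 1.15 to 1.33). Signs differed between alternatives for several small ratios, among them Itgam in cKO control (-0.45 to 0.28) and Cd44 in cKO IR (-0.04 to 0.38) between tissues, Itgb2 in WT IR (-0.23 to 0.16) and cKO IR (-0.08 to 0.25), Cd44 in WT IR (-0.10 to 0.22), Itgal (-0.02 to 0.66) and Itga4 (-0.33 to 0.41) between IR and control cKO tumor, and Itgax (-0.55 to 0.08) and Itgam (-0.33 to 0.06) between cKO and WT tumor control.

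Counts over all genes moved more. With at least 20 UMIs as the minimum, the genes past the limit were 406 (126 as reported) for IR in WT blood, 404 (131) in cKO blood and 1195 (621) in WT tumor, and for cKO against WT 521 (217) and 253 (66) in control and IR blood and 969 (508) and 402 (113) in control and IR tumor. With myeloid classes alone they were 81 for IR in WT blood and 1169 (2353) in cKO tumor, and for genotype 111 in blood control, 251 in tumor control and 32 in tumor IR. A symmetric hashtag margin gave 822 and equal weighting 867 for genotype in tumor control. With genotypes pooled, IR in tumor gave 1945 with the hashtag minimum and 12 without it. Under TMM the percent of passing genes that were higher was 64.4 (43.5 as reported) for IR in WT tumor, 37.4 (23.6) in cKO tumor and 60.2 (71.3) for genotype in tumor control. Equal weighting moved the last to 91.2, the symmetric margin to 84.9, and myeloid classes alone moved WT blood IR to 56.8 (27.8). The cause was not tested. Leaving out a replicate was not possible with 1 sample per group. No paired analysis was possible because each group is 1 pool of mice. Depth also limits values within classes, as Itga4 in tumor neutrophil-like cells rests on 7 and 10 UMIs.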

Other observations

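Over 37 sums of UMIs by library, genotype and named cell class (9 classes, 9982 genes), the genes whose log2(CPM + 1) was most like each member were recorded. The points share libraries and depth, and the values are a description. Itgam was most like Vav1 (Pearson r 0.90), its β partner Itgb2 (0.89) and Vsir (0.89), while its chromosomal neighbour Itgax reached 0.45 with it. Itgb2 was most like Hcls1, Tm6sf1 and Fcer1g (each 0.95), and Itgal reached 0.86 with it. Itgal was most like Arhgap4 (0.95), Prkcb (0.95) and the adhesion receptor gene Adgre5 (0.94). Itgax had the weakest likeness of the members, with Spty2d1 at 0.81 and Plek and Galnt6 at 0.77.

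Itga4 was most like Stk4 (0.94), Prex1 (0.93) and Nsd1 (0.93), and Selplg shared Prex1 with it (0.96) and was most like Pik3r5 (0.97), with Eif2s3y also at 0.96. Itga4 and Selplg reached 0.85 with each other. Itgb1 was most like Taf5l (0.95), Smc6 (0.95) and U2surp (0.94), and Itgb7 like Lman2 (0.89), Arl6ip5 (0.89) and Ebp (0.88). Cd44 was most like Cebpb (0.93), which encodes a transcription factor of myeloid cells, Id1 (0.91) and Il1rap (0.90). Cd44 and Itgb1 had a negative value (-0.67).

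Migratory dendritic cell-like cells, which reached 50 cells in cKO tumor IR alone (74 cells), combined 807 CPM of Itga4 and 658 CPM of Selplg with 18.0 CPM of Itgam, 4.51 CPM of Itgax and no UMI of Itgal. The conventional dendritic cell-like class had at most 125 CPM of Itga4 and 365 CPM of Selplg in any tumor group. Unnamed cluster 4 had a higher level of Itgal (179 to 219 CPM) than the classical monocyte-like (71.4 to 84.5) and macrophage-like (49.6 to 80.2) tumor cells, and 1075 to 1213 CPM of Cd44. In blood, unnamed cluster 12 held 418 cells of cKO control and 24 to 38 cells of the other blood groups.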
